A study of Rattus norvegicus with 24 samples.

Results

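Ankrd1 and Csrp3 are genes of the striated muscle fibre, each measured here by the only probe set that carries its symbol in the platform annotation. They are 2 of the 4736 genes that the annotation names singly, and both of their probe sets were among the 5741 tested of 8740 in all. RNA came from the extraocular muscles (EOM), which turn the eyeball, and from the extensor digitorum longus (EDL), a fast hindlimb muscle that extends the toes, of rats (Rattus norvegicus) aged 6, 18 and 30 months. The 6 groups, EOM at 6, 18 and 30 months and EDL at 6, 18 and 30 months, held 4 arrays each, and each RNA sample was pooled from 4 animals. Strain and sex were not given in the sources used here, and no treatment or allele is named for any group. The pair was chosen by measured values of these data: both were selected on their low intensity in EOM relative to EDL, and Ankrd1 also on its high intensity in EDL at 30 against 6 months. Those differences are therefore given as descriptions without a test, and tests are given for the age changes within EOM, for EDL at 18 against 6 months, and for the difference of the 18-month change between the muscles. The last 2 of these share their 6-month EDL arrays with the change that brought Ankrd1 to notice.

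Ankrd1 encodes the cardiac ankyrin repeat protein, which binds titin in the sarcomere and also occurs in the nucleus, where it acts on transcription. Csrp3 encodes the muscle LIM protein, an adaptor with LIM domains that sits at the Z-disc, binds alpha-actinin and telethonin, and enters the nucleus as a partner of myogenic factors. Both are best known from the heart and are induced in striated muscle by stretch, load or loss of the nerve supply. In limb muscle the muscle LIM protein is more abundant in slow fibres.

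The arrays were Affymetrix Rat Genome U34, whose values are linear signal intensities in arbitrary units, 1 per probe set. Median intensities ran from 89.7 to 136.8 units over the arrays, whose number sets the precision of every value. One library differed from its group: replicate 1 of EDL at 30 months correlated with the rest of it at a median rho of 0.873, and the 23 remaining arrays lay at 0.915 to 0.962. Signs of RNA quality also differed. The beta-actin 3'/5' ratio, a measure of RNA breakdown, reached 2.54 in replicate 1 and 3.54 in replicate 2 of the 6-month EDL group, while the 20 arrays outside that group read 1.13 to 2.12. The labelled tissues carried their defining transcripts. Myh13, the extraocular myosin, lay between 10667 and 19960 units in EOM and between 19.9 and 175.3 units in EDL, and all 7 listed markers of skeletal fibres were above the floor in every group. A log2 difference is computed on intensities floored at each array's 25th percentile (21.4 to 34.5 units), and every value of both genes lay above that floor. Levels are means ± SD over n = 4 arrays. Here called means a Benjamini-Hochberg adjusted p under 0.05 from limma, over all 5741 probe sets.

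Ankrd1 (Entrez gene 27064, probe set U50736_s_at) was low on every EOM array. Its values were 186.4, 172, 121.9 and 164.9 units in EOM at 6 months, 165.2, 188.7, 173.2 and 171.9 units at 18 months, and 219.5, 137.8, 189.4 and 158.2 units at 30 months. The suffix of its probe set marks probes that may match more than 1 transcript. In EDL it stood at 397.9, 823.5, 1853.4 and 296.1 units at 6 months and at 493.7, 397.4, 1082.9 and 289.1 units at 18 months, with replicate 3 highest at both ages. At 30 months its EDL values were 7628.4, 5174.7, 4640.2 and 5349.2 units. The 3 EOM groups overlapped with each other, the EDL groups at 6 and 18 months overlapped with each other, and the EDL group at 30 months lay above all 20 other arrays. Of all probe sets 2.84% had every EDL array at 30 months above every one at 6 months, and 3.27% above every one at 18 months, shares from which nothing is read, as these arrays chose Ankrd1.

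Csrp3 (Entrez gene 117505, probe set X81193_at) had the same order of muscles and another course with age. Its EOM values were 435.8, 741.2, 530.5 and 412.3 units at 6 months, 377, 286.1, 468.8 and 371.3 units at 18 months, and 372.5, 315.6, 437.5 and 427.4 units at 30 months. In EDL it stood at 2363.9, 4160.9, 9433.3 and 1071.3 units at 6 months and at 1388.5, 2386.4, 3647.3 and 855.5 units at 18 months. At 30 months its EDL values were 1702.4, 4288.4, 5030.4 and 2389.6 units. All 3 EDL groups overlapped, as did all 3 EOM groups, and replicate 3 was the highest EDL array at each age.

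**Figure D1:**
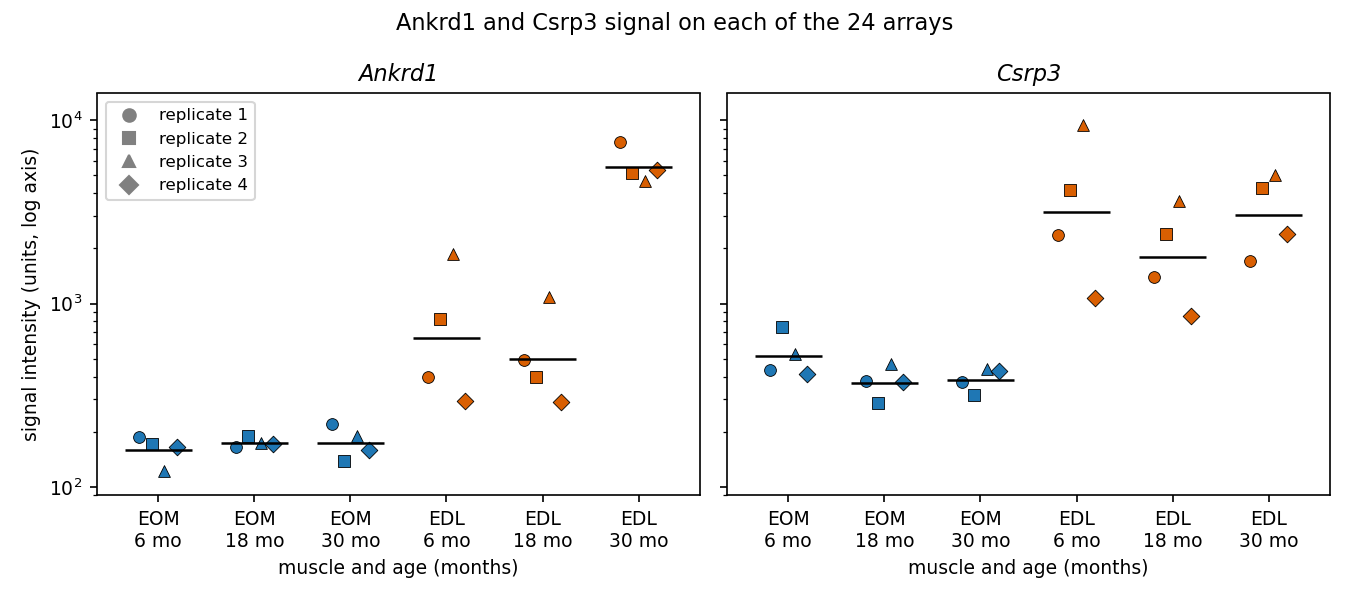
Signal intensity of Ankrd1 (left) and Csrp3 (right) on each array, on a log axis, by muscle and age; symbols mark the replicate number and horizontal lines the mean on the log2 scale. All 12 EOM arrays lie below all 12 EDL arrays for both genes, and Ankrd1 in EDL at 30 months, 4640.2 to 7628.4 units, lies above every other group.

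For each gene the highest of the 12 EOM arrays lay below the lowest of the 12 EDL arrays: 219.5 against 289.1 units for Ankrd1 and 741.2 against 855.5 units for Csrp3. Such separation was seen for 113 of the 5741 probe sets, or 1.97%. It describes the comparison by which the pair was chosen and is not read as a result. Ordered by mean, Ankrd1 ran through EOM at 6 months (161.3 ± 27.7 units), EOM at 18 months (174.8 ± 9.94), EOM at 30 months (176.2 ± 35.8), EDL at 18 months (565.8 ± 355), EDL at 6 months (842.7 ± 711) and EDL at 30 months (5698 ± 1322). The step into the EDL groups and the step to EDL at 30 months were the only neighbouring steps in which the arrays did not overlap. Csrp3 ran through EOM at 18 months (375.8 ± 74.6 units), EOM at 30 months (388.3 ± 56.2), EOM at 6 months (530.0 ± 150), EDL at 18 months (2069 ± 1229), EDL at 30 months (3353 ± 1564) and EDL at 6 months (4257 ± 3676). Here the step into the EDL groups was the only one without overlap.

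For Ankrd1 the gap between the muscles was widest at 30 months. EOM minus EDL was -2.03 on the log2 scale at 6 months (SE 0.40), -1.51 at 18 months (SE 0.40) and -5.01 at 30 months (SE 0.40). As folds, EDL was 4.09 times, 2.85 times and 32.2 times EOM at the 3 ages. At 30 months it was the lowest log2 difference of all 5741 probe sets, while at 6 and 18 months it ranked 17th and 100th. For Csrp3 the differences were -2.61, -2.28 and -2.99 (SE 0.47 each), so EDL was 6.12, 4.84 and 7.95 times EOM, and it ranked 5th, 15th and 5th from the lowest. The share of all probe sets called lower in EOM was 6.29% at 6, 9.25% at 18 and 7.79% at 30 months, and nothing is read from it here, since these comparisons chose the pair. In EDL, 30 minus 6 months was 3.10 for Ankrd1 (SE 0.40), the 10th highest of all probe sets, and 30 minus 18 months was 3.49 (SE 0.40), the 4th highest. Csrp3 stood at -0.04 (SE 0.47) and 0.77 (SE 0.47) in these comparisons. For Ankrd1 the difference of 30 minus 6 months was 3.456 within replicates 1 and 2, 2.75 within replicates 3 and 4, 2.954 without replicate 1 at 30 months, and 2.917 without both 6-month arrays of high actin ratio. For Csrp3 the same values were -0.215, 0.125, 0.237 and -0.055, so its sign depended on the arrays kept.

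**Figure D2:**
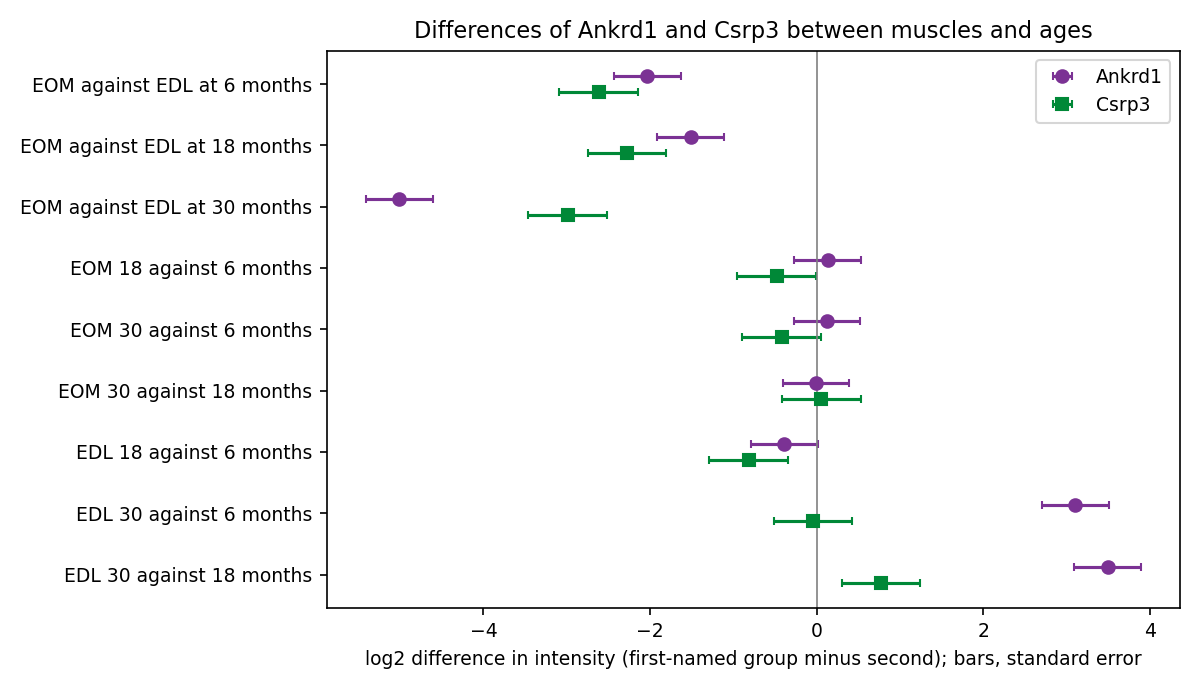
Log2 differences of Ankrd1 (circles) and Csrp3 (squares) between muscles at each age and between ages within each muscle, with standard errors as bars. Ankrd1 ranges from -5.01 for EOM against EDL at 30 months to 3.49 for EDL at 30 against 18 months, while the age changes of both genes in EOM lie between -0.48 and 0.13.

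In EOM no age change of either gene passed the test. Ankrd1 at 18 against 6 months differed by 0.13 on the log2 scale (SE 0.40, 95% interval -0.70 to 0.96, adjusted p = 0.9993 from limma). At 30 against 6 months it differed by 0.12 (SE 0.40, interval -0.71 to 0.95, adjusted p = 0.9996) and at 30 against 18 months by -0.01 (SE 0.40, interval -0.84 to 0.82). For Csrp3 the differences were -0.48 at 18 against 6 months (SE 0.47, interval -1.46 to 0.50, adjusted p = 0.9993) and -0.42 at 30 against 6 months (SE 0.47, interval -1.40 to 0.56, adjusted p = 0.9996). The interval of Ankrd1 at 30 against 6 months in EOM runs from 0.61 to 1.93 times the 6-month level, and that of Csrp3 from 0.38 to 1.47 times. Few probe sets changed in EOM at all: 10 of 5741 (0.174%) were called at 18 and 2 (0.0348%) at 30 against 6 months, with 228 and 132 at an unadjusted p under 0.05. At 30 against 18 months 1 (0.0174%) was called. With the replicate number as a block, which pairs the EOM samples, the first counts were 34 and 4, and neither gene was among those called (adjusted p = 0.726 to 0.999). The EOM intervals are wide because the fit shares 1 spread per probe set between the muscles. The same sharing makes the SEs and intervals of both genes within EDL narrower than the EDL spread alone would give. That holds for 18 against 6 months and for the described differences of EDL at 30 months from 6 and 18 months. The SD between pools of a group, on the log2 scale, was 0.23 in EOM and 0.85 in EDL for Ankrd1, and 0.31 in EOM and 1.02 in EDL for Csrp3. Fitted on the 12 EOM arrays alone, the SE was 0.22 for both genes and again neither was called (adjusted p = 0.957 and 0.806 at 18 against 6 months).

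EDL at 18 against 6 months did not pass either. Ankrd1 differed by -0.39 (SE 0.40, interval -1.22 to 0.44, adjusted p = 0.9463), and by 0.12 without replicate 3 at 6 months. Csrp3 differed by -0.82 (SE 0.47, interval -1.79 to 0.16, adjusted p = 0.7626, unadjusted p = 0.0976). All 4 Csrp3 values at 18 months were lower than the 6-month value of the same replicate number, but whether the numbers pair the EDL samples at these ages is not settled, and with the replicate number as a block the gene was again not called (adjusted p = 0.162). Of all probe sets 16 (0.279%) were called in this comparison, and 440 had an unadjusted p under 0.05. The 18-month change did not differ detectably between the muscles, with EOM minus EDL at 0.52 for Ankrd1 (SE 0.57, interval -0.65 to 1.69) and 0.34 for Csrp3 (SE 0.67, interval -1.04 to 1.72, adjusted p = 0.9976 for both), in a comparison in which limma called 0 probe sets and 253 had an unadjusted p under 0.05. None of the 10 tested comparisons had an unadjusted p under 0.05, and limma called none of them.

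The EDL pools of a given age differed widely in both genes. The highest 6-month array was 6.26 times the lowest for Ankrd1 and 8.81 times for Csrp3, and at 18 months the ratios were 3.75 and 4.26. At 30 months they were 1.64 and 2.95. Of all probe sets 79.9% in EOM and 11.9% in EDL had a larger within-group SD than Ankrd1. For Csrp3 the shares were 63.1% in EOM and 4.7% in EDL. Among the 2870 brighter probe sets the EDL shares were 4.29% for Ankrd1 and 1.81% for Csrp3. Within EDL groups the deviations of the genes from their group means, over 12 arrays, had a Pearson r of 0.752 (exact permutation within groups, two-sided p = 0.0323, Benjamini-Hochberg p = 0.0646 over the 2 muscles). On ranks taken within each group, not over all the arrays together, Spearman rho was 0.267 (exact permutation p = 0.506). The permutation treats arrays as independent, and r was 0.566 after the mean of each replicate number was removed. Without the pair of arrays farthest from the median in Ankrd1 r was 0.48, so its size depended on those arrays. The EDL replicates stood in the same order for both genes at 6 months and in reversed order at 30 months. Whether the genes vary together between EDL pools is therefore not settled. In EOM r was 0.009 (exact permutation p = 0.981) over 12 arrays, rho of the ranks within groups was 0 (exact permutation p = 1), and r was -0.248 without the 2 farthest arrays.

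Slow fibre transcripts also differed between the EDL pools. The summed intensity of 8 slow fibre genes, among them Myh7, the slow myosin, was 49159.2, 110040.8, 106708.5 and 30954.4 units in replicates 1 to 4 of EDL at 6 months. Csrp3 stood at 2363.9, 4160.9, 9433.3 and 1071.3 units on the same arrays. The probe set of Myh7, X15939_f_at, likewise has a suffix that marks probes that may match more than 1 transcript. Replicates 2 and 3 at 6 months had the highest slow fibre sums of all EDL arrays, and replicate 3 also had the highest Csrp3. The sum was 32210.2, 57215.5, 31092.5 and 18222 units in replicates 1 to 4 of EDL at 18 months and lay between 22917 and 40456.4 units at 30 months. At each age, 6 months included, the highest Csrp3 and the highest sum were on different arrays. At 18 months replicate 3, with the highest Csrp3, had a lower sum than replicates 1 and 2. At 30 months the array with the highest Csrp3, replicate 3, had a sum of 23695.9 units, below that of replicate 4 (40456.4 units), whose Csrp3 was 2389.6 units. The part of slow fibre content in the spread of Csrp3 was not tested. In pooled tissue, fewer cells of a type and less RNA per cell cannot be told apart.

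Within EDL the denervation response genes had their highest sum on the array highest in Ankrd1 at each age. Their summed intensity over 12 genes was 21594.5, 21160.3, 15368.8 and 15970.3 units in EDL at 30 months, against 4043, 6479.1, 8478.3 and 4329.1 units in EDL at 6 months. Replicate 3 at 6 months, the array highest in Ankrd1 at that age, also had the highest sum. On it Chrna1, the acetylcholine receptor alpha subunit, read 1032.8 units against 265.2 to 344.7 on the other 3 arrays, and Runx1, which encodes a transcription factor that muscle expresses after denervation, read 825.4 against 251.8 to 306.1. At 18 months the same held for replicate 3, with the highest Ankrd1 (1082.9 units), the highest sum (5976.1 units) and the highest Runx1 (652.7 units) of its group. In EOM the sum was 31187.7 to 50959.9 units, most of it Myh3, the embryonic myosin, with group means between 25774 and 30191 units. Without Myh3 the sum was 11913.5 to 14322.1 units in EOM and 2603.2 to 5815.8 in EDL at 6 months, and 12468.9 to 15178.2 in EOM and 3124.5 to 4680.6 in EDL at 18 months. At 30 months it was 11629 to 14963.1 units in EOM and 11715.4 to 19626.3 in EDL, so the muscles overlapped in this sum at that age. Myh8, another developmental myosin, stayed in the sum, with means of 5429 ± 1149 units in EOM and 32.05 ± 26.8 in EDL at 30 months. Its means were 5356 units in EOM and 32.7 in EDL at 6 months, and 5368 and 19.8 at 18 months. Whether the muscles overlap without Myh8 was not tested.

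**Figure D3:**
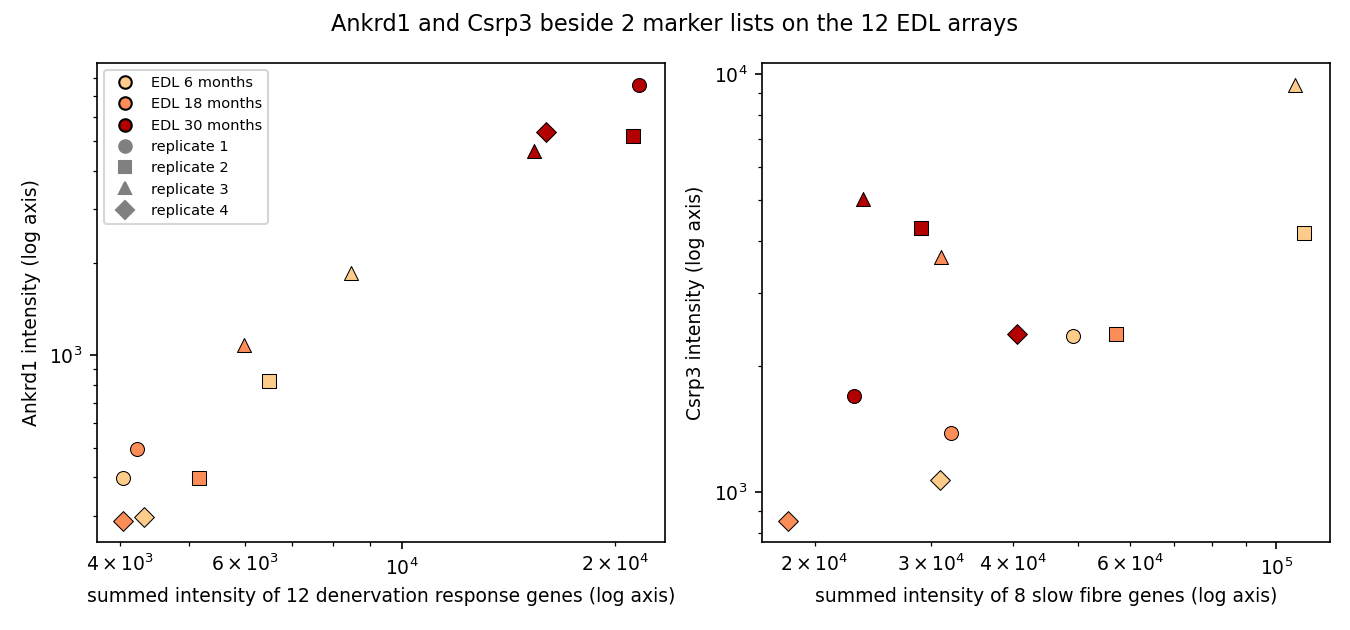
The 12 EDL arrays, by age (shade) and replicate number (symbol), on log axes: left, Ankrd1 against the summed intensity of 12 denervation response genes; right, Csrp3 against the summed intensity of 8 slow fibre genes. The 30-month arrays lie apart at the upper right for Ankrd1, with sums of 15368.8 to 21594.5 units, and replicates 2 and 3 at 6 months lie at the right for Csrp3, with sums of 110040.8 and 106708.5 units.

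Markers of other cells differed between the groups as well. Medians over 12 arrays each, EOM over EDL, were 0.718 for the sum of 7 skeletal fibre markers, while the fold of the mean log2 difference was 0.139 for Ankrd1 and 0.162 for Csrp3. EOM had 11.8 times the EDL sum of 4 orbital gland markers (3329.8 to 33880 units in EOM and 166.8 to 6959.6 in EDL), 4.67 times for 3 Schwann cell markers (4165.2 to 6517 and 756.9 to 1795.8 units), 3.42 times for 2 red cell markers and 2.4 times for 4 smooth muscle markers. Within EDL the gland sum was 2382.8 to 6959.6 units at 30 months, against 169.1 to 601.5 at 6 months. Nearly all of that rise was Klk1, with EDL means of 162.4 ± 171 units at 6 and 3509 ± 2174 at 30 months. At the same ages Spt1 averaged 21.1 and 28.9 units and Krt19 12.7 and 37.5 units, near the floor, and Aqp5 111.3 and 155.4 units. The sum of 7 fibroblast and tendon markers was 10881 to 24259 units in EDL at 30 months, against 23706 to 38198 at 6 months. That fall lay mainly in the collagens Col1a1, Col1a2 and Col3a1, with EDL means of 7037, 5407 and 3832 units at 6 and 2667, 1359 and 1067 at 30 months. At these ages Dcn averaged 11369 ± 2497 and 10345 ± 3360 units, Comp 242 and 246.6, Fmod 1105.5 and 984.2, and Lum 585.3 ± 447 and 342.6 ± 202. The part of these cells in the levels of Ankrd1 and Csrp3 was not tested.

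Among the proteins that share the sarcomere with the pair, most measured transcripts were lower in EOM. Of 48 listed genes of titin, the Z-disc and the costamere, 24 were measured: 13 were lower in EOM over the mean of the ages, 6 were higher and 5 were not called. The called genes are 79.2% of the 24 measured, and of all 3419 genes 43.4% were called, 20% lower and 23.4% higher. The median of the list was -0.32, beside -0.04 for all genes. Ttn, the titin that Ankrd1 binds, was lower by the most (log2 -2.69, SE 0.49, adjusted p = 9.2e-05), from a dim and variable probe set. It averaged 65.7 ± 94.6 units in EOM and 379.1 ± 406 in EDL at 30 months, and 22.2 ± 7.95 units in EOM and 325.1 ± 159 in EDL at 18 months. Lower in EOM were also Pdlim3, a Z-disc partner of alpha-actinin (-1.61, SE 0.10), Trim63, a muscle ubiquitin ligase that binds titin (-1.34, SE 0.13), and Neb, nebulin of the thin filament (-1.26, SE 0.19). Flnc, the muscle filamin, followed at -1.15 (SE 0.11), and Actn2, an alpha-actinin, which the muscle LIM protein binds, at -1.13 (SE 0.11). Tcap, telethonin, differed by less (-0.31, SE 0.09, adjusted p = 0.0108), a call lost after quantile normalisation.

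Over the mean of the ages the relatives of Csrp3 in the same gene family were higher in EOM. Csrp1, a LIM protein known from smooth muscle, stood at 1246 ± 648 units in EOM and 500.9 ± 257 in EDL at 6 months, and at 994.2 ± 235 units in EOM and 427.5 ± 151 in EDL at 30 months. It was higher in EOM by 1.29 on the log2 scale (SE 0.21, adjusted p = 2.27e-05). Csrp2 was higher by 0.51 (SE 0.20, adjusted p = 0.0376), a call that was lost in 18 of 36 alternatives. Its means were 128.1 ± 25.98 units in EOM and 136.1 ± 47.5 in EDL at 6 months, and 165.4 ± 27.1 in EOM and 77 ± 41.7 in EDL at 18 months. Fhl2, a LIM protein of the heart that binds titin, was higher by 2.27 (SE 0.40, adjusted p = 5.12e-05), though at 6 months its means were 237.3 ± 27.5 units in EOM and 249.2 ± 291 in EDL. Its EDL means at 18 and 30 months, 18.8 and 28 units, lay near the floor, and the difference ran from 1.256 to 2.786 over the alternatives. No probe set was annotated singly to the ankyrin repeat relatives Ankrd2 and Ankrd23, or to Fhl1, so these genes were not analysed.

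In EDL at 30 against 6 months only Pdlim1 of the 24 genes of this list was called, as lower (log2 -1.27, SE 0.30, adjusted p = 0.0219), which is 4.17% of it beside 1.64% of all genes, 0.292% lower and 1.35% higher. Leaving out replicate 2 or 3 of the younger group or replicate 1 of the older one ended that call (adjusted p = 0.0802 to 0.123), as did leaving out both 6-month arrays of high actin ratio (adjusted p = 0.326). Over probe sets 107 (1.86%) were called, and 180 with the replicate number as a block. The list's median was -0.03, beside 0.02 for all genes. Values of the partners named above were 0.61 for Ttn (SE 0.85), 0.60 for Trim63 (SE 0.22, adjusted p = 0.266), 0.19 for Flnc (SE 0.20), -0.16 for Actn2 (SE 0.19) and -0.09 for Tcap (SE 0.16). Csrp1 stood at -0.16 (SE 0.37) and Csrp2 at -0.11 (SE 0.34). Beside these, Ankrd1 stood at 3.10 and Csrp3 at -0.04.

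**Figure D4:**
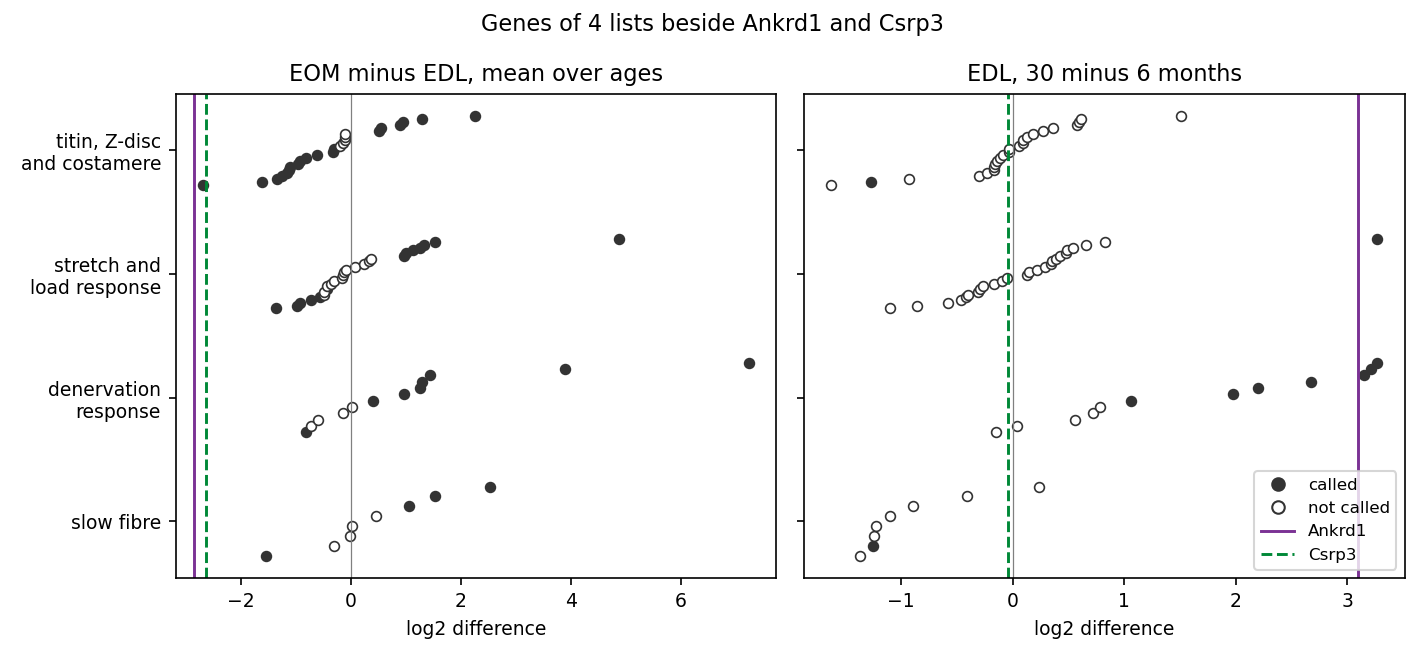
Log2 differences of the genes of 4 lists, filled where called and open where not, for EOM minus EDL as the mean over ages (left) and EDL at 30 minus 6 months (right), with Ankrd1 as a solid and Csrp3 as a dashed line. On the left both lines lie at the low end of the lists, at -2.85 and -2.63; on the right Ankrd1, at 3.10, lies beside the denervation response genes of the largest rise and Csrp3 at -0.04.

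Of 37 genes listed as responding to stretch and load 26 were measured, and 1 of them, Gadd45a, a stress gene also induced by denervation, rose in EDL at 30 against 6 months (log2 3.27, SE 0.26, adjusted p = 2.38e-08). That is 3.85% of the 26 measured beside 1.64% of all genes, in a comparison that chose Ankrd1. The median of the list was 0.14, and with the replicate block 2 of the 26 were called. Values not called were 0.48 for Ccn1, a matricellular target of mechanical signalling (SE 0.39), 0.43 for Atf3, a stress transcription factor (SE 0.34), 0.83 for Myc (SE 0.37), 0.49 for Jun (SE 0.19) and -0.58 for Egr1 (SE 0.33). Between the muscles 7 of the 26 were higher and 6 lower in EOM, with a median of -0.13, and 50% were called beside 43.4% of all genes. The largest differences were Actc1, the cardiac alpha-actin, at 4.89 (SE 0.26), Igf1 at 1.54 (SE 0.18), Jun at -1.36 (SE 0.11), Klf4 at 1.33 (SE 0.13), Gadd45a at 1.26 (SE 0.15) and Tgfb1 at 1.12 (SE 0.30, adjusted p = 0.00417). Ccn1 (-0.93, SE 0.23, adjusted p = 0.00175) and Atf3 (-0.97, SE 0.19) were lower in EOM.

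Of 20 measured regulators and interacting proteins, 3 were called in EDL at 30 against 6 months, all higher, or 15% beside 1.64% of all genes: Myog, myogenin (log2 3.21, SE 0.63), Runx1 (1.98, SE 0.35) and Myod1, with which the muscle LIM protein interacts (1.03, SE 0.24, adjusted p = 0.0207). Myog and Runx1 also stand on the denervation response list, as does Gadd45a of the stretch list, so these counts are not independent. The comparison is the one that chose Ankrd1. Without both 6-month arrays of high actin ratio Runx1 was not called (log2 1.56, adjusted p = 0.0725). Myod1 was no longer called when replicate 2 or 3 of the younger or replicate 1 or 2 of the older group was left out (adjusted p = 0.072 to 0.0989). Over the mean of the ages 10 of the 20 were lower in EOM and 3 higher, with a median of -0.45, where 20% of all genes were lower and 23.4% higher. Lower were Smad3, a mediator of TGF-beta signals (-1.45, SE 0.33), Ppp3ca, a catalytic subunit of calcineurin (-1.17, SE 0.16), Myod1 (-1.05, SE 0.14) and Adra1a, from a dim probe set (-0.87, SE 0.29), and higher were Gata6 (1.91, SE 0.32) and Casq2 (1.53, SE 0.23). Ybx1, a protein that binds the cardiac ankyrin repeat protein, stood at -0.50 (SE 0.19, adjusted p = 0.032), a call lost in 9 of 36 alternatives.

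Of 12 measured denervation response genes 7 rose in EDL at 30 against 6 months and none fell, or 58.3% beside 1.64% of all genes called. The comparison is the one that chose Ankrd1, and the list was drawn up with earlier results of these data known. Nothing about Ankrd1 is therefore read from this share. The median of the 12 genes was 1.52, with Gadd45a, Myog and Chrna1 (3.15, SE 0.30) nearest to the 3.10 of Ankrd1. The others were Cdkn1a, a cell cycle inhibitor (2.68, SE 0.64), Chrnd (2.20, SE 0.34), Runx1, and Chrnb1, the acetylcholine receptor beta subunit (1.06, SE 0.15). Cdkn1a lost its call without replicate 1 or 2 of the younger or replicate 1, 3 or 4 of the older group (adjusted p = 0.0525 to 0.105), and without both 6-month arrays of high actin ratio (adjusted p = 0.487). Within replicates 3 and 4 alone, where 2 arrays stood in each group, 1 of the 12 was called. Within EOM limma called 0 of the 12 at 18 or at 30 against 6 months, beside 0.205% and 0.0292% of all genes. Over the mean of the ages 7 of the 12 were higher in EOM and 1, Runx1, lower (-0.82, SE 0.20), beside 23.4% and 20% of all genes. The counts differed by age. At 6 months 7 were higher and 0 lower in EOM (median 1.195, beside 12.2% and 6.43% of all genes), and at 18 months 7 and 0 (median 1.075, beside 15.2% and 9.04%). At 30 months 3 were higher and 4 lower (median -0.45, beside 12.2% and 8.01%). Over the mean of the ages the developmental myosins differed by the most, Myh8 by 7.25 (SE 0.14), with EDL means of 19.8 to 32.7 units near the floor, and Myh3 by 3.89 (SE 0.15), followed by Chrnd (1.43, SE 0.19), Chrne, the epsilon subunit of the adult receptor (1.30, SE 0.14), Gadd45a and Chrna1 (0.97, SE 0.17). Of 8 slow fibre genes only Myl2, the slow light chain, was called in EDL at 30 against 6 months, as lower (-1.26, SE 0.28, adjusted p = 0.0128), and the list's median was -1.16. It was not called without replicate 2 of the younger or replicate 1 or 3 of the older group (adjusted p = 0.0581 to 0.0746), nor without both 6-month arrays of high actin ratio (adjusted p = 0.176). With the replicate number as a block 5 of the 8 were called. Csrp3 stood at -0.04 (SE 0.47) in this comparison, and its difference from the slow fibre genes was not tested. Between the muscles, over the mean of the ages, Myh7 and Tnni1 of the slow fibre list were not called (-0.31, SE 0.20, and 0.03, SE 0.26). Myl3 was lower in EOM (-1.54, SE 0.21), while Pln, phospholamban (2.53, SE 0.23), Casq2 and Tpm3 (1.06, SE 0.17) were higher. The list's median, EOM minus EDL, was -0.624 at 6, 0.705 at 18 and 0.656 at 30 months, so its sign differed by age. Tnni1 averaged 3053 ± 655 units in EOM and 7182 ± 5452 in EDL at 6 months. At 30 months it averaged 3038.5 ± 445 units in EOM and 2095 ± 559 in EDL. The EDL means of Pln, 31.5 to 40.2 units, lay near the floor, and its difference ran from 1.666 to 2.794 over the alternatives.

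The genes of most similar pattern were sought among 3418 named genes by Pearson r of log2 intensities, as a measure of likeness with no test. Arrays of a group share muscle and age, so r over 24 arrays mainly follows the differences between groups. For Ankrd1 the highest were Slc29a1, a nucleoside transporter (r = 0.919), Pvr (0.903), Adra1b, an alpha-1 adrenergic receptor (0.878), Tmem64 (0.872), Trim63 (0.869) and Runx1 (0.866). Slc29a1 averaged 524.3 ± 44.8 units in EOM and 1753 ± 465 in EDL at 30 months, and 533.9 ± 65.6 in EOM and 707.7 ± 77.3 in EDL at 6 months. Over the 12 EDL arrays alone, where the 30-month arrays stand apart from the rest, the highest were B2m, the light chain of class I molecules (0.975), Runx1 (0.961), Chrnd, the acetylcholine receptor delta subunit (0.959), Pvr (0.954), Chrna1 (0.944) and Map1a (0.944).

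Csrp3 had other neighbours. Over 24 arrays they were Car3, muscle carbonic anhydrase, which is abundant in slow fibres (r = 0.927), Vtcn1 (0.914), Psmc5, a proteasome subunit (0.892), Tle1 (0.884), Kbtbd12 (0.884) and Flnc (0.883). Car3 stood at 455.2 ± 148 units in EOM and 5715 ± 4088 in EDL at 6 months, and at 458.1 ± 203 units in EOM and 7066 ± 2925 in EDL at 30 months. Over the 12 EDL arrays they were Rps6, a ribosomal protein (0.904), Gatm, an enzyme of creatine synthesis (0.867), Myl12a (0.866), Lpl, lipoprotein lipase (0.862), P2rx4 (0.855) and Eif3m (0.853). Lpl in EDL at 6 months read 1688.1, 2484.8, 5598.7 and 1221.7 units in replicates 1 to 4, highest where Csrp3 was highest. No gene stood on both lists of the same kind: r between Ankrd1 and Csrp3 was 0.805 over 24 arrays, where Csrp3 ranked 19th for Ankrd1 and Ankrd1 45th for Csrp3, and 0.487 over the 12 EDL arrays.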

How the data were processed

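Signal intensities were deposited on a linear scale; per the labels and the submitters' processing notes, the authors computed them with Microarray Suite 5.0. The arrays were already scaled, with trimmed means of 494.9 to 498 on all 24, and were treated as 1-colour although the labels name dyes. After removal of 59 controls from 8799 probe sets, intensities were floored at the 25th percentile of their array and log2-transformed. Probe sets above the 40th percentile on 3 or more of the 4 arrays in any group were kept for testing. One model with a mean for each of the 6 groups was fitted with limma 3.58.1 in R 4.3.3 (intensity trend, 18 residual degrees of freedom), and the fit was tested on simulated data. Tests were two-sided, with Benjamini-Hochberg adjustment over all probe sets kept. Replicates are pools of animals, so p-values reflect differences among pools. The sources used here do not say whether EOM and EDL pools share animals.

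The members and the gene lists were chosen with earlier results of these data known. A gene was represented by its brightest tested probe set. For each list the called genes of largest difference, up to 6, were named, beside Ttn, Tcap and the relatives of both genes; other list members were named after their values were seen. Of 138 listed genes 85 were tested, and 7 stood on more than 1 list. Pairing by the replicate number in the labels was checked on deviations from group means, which correlated at 0.14 to 0.527 between same-numbered EOM arrays and at 0.06 to 0.455 between same-numbered EDL arrays. By a minimum of 0.1 in every pair, the numbers pair the EOM samples, and EDL at 30 with 6 months, but not EDL at 18 with 6 or 30 months. Between the muscles same-numbered arrays correlated at -0.008 to 0.388. In all, 8 of 15 pairs of groups passed, among them EOM at 6, 18 and 30 months each with EDL at 6 months, and EOM at 18 with EDL at 30 months. What the shared numbers stand for was not tested, and no fit paired EOM with EDL. Alternatives covered scaling, floor, filter, spread, samples, pairing and each array left out; leaving out both 6-month EDL arrays of high actin ratio, and the denervation sum without Myh3, were added after seeing the data.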

Additional observations from a re-analysis of the deposited data

How the results depend on the processing

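None of the 10 tested comparisons of Ankrd1 and Csrp3 was called under any alternative run (368 values, adjusted p = 0.161 to 1), the replicate block included. Changes near 0 turned sign. Within replicates 1 and 2 Ankrd1 in EOM stood at -0.02 at 18 and -0.042 at 30 against 6 months, and the 18-month change of Csrp3, EOM minus EDL, at -0.006. Ankrd1 in EOM at 30 against 18 months was 0.011 after quantile normalisation, 0.008 with arrays centred on their medians and 0.005 within replicates 3 and 4. With each array left out in turn, Ankrd1 ranged from -0.006 to 0.234 in EOM at 30 against 6 months, from -0.122 to 0.102 in EOM at 30 against 18 months and from -0.766 to 0.116 in EDL at 18 against 6 months, positive without replicate 3 of EDL at 6 months. Csrp3 ranged from -0.067 to 0.17 in EOM at 30 against 18 months, and its 18-month change, EOM minus EDL, from -0.188 to 0.858. The described differences kept their sign for EOM against EDL, from -2.978 to -2.684 for Ankrd1 and from -2.8 to -2.452 for Csrp3, and for Ankrd1 in EDL at 30 against 6 months, from 2.724 to 3.606. Csrp3 in EDL at 30 against 6 months ran from -0.565 to 0.481. Counts over all probe sets moved more. For EDL at 30 against 6 months, 107 as reported, 180 were called with the replicate block, 180 within replicates 1 and 2, 5 within replicates 3 and 4, 55 in EDL arrays alone, 60 without both arrays of high actin ratio, and 65 to 159 with an array left out, 65 without replicate 1 at 30 months. For EDL at 18 against 6 months, 16 as reported, the count was 5 without an intensity trend, 4 with array weights, 40 with the replicate block, 47 within replicates 1 and 2, 0 within replicates 3 and 4, 1 in EDL arrays alone, and 3 to 80 with an array left out. For EOM at 18 against 6 months, 10 as reported, it was 18 after quantile normalisation, 25 with centred medians, 2 with a floor at the 10th percentile, 44 with array weights, 34 with the replicate block, 0 within replicates 1 and 2, 0 within replicates 3 and 4, 5 in EOM arrays alone, and 1 to 20 with an array left out. For EOM at 30 against 6 months, 2 as reported, it was 1 after quantile normalisation, with centred medians, with the stricter filter and within replicates 3 and 4, 0 with the lower floor and within replicates 1 and 2, 4 with array weights, 4 with the replicate block, and 0 to 3 with an array left out. Of the titin and Z-disc list in EDL at 30 against 6 months, 1 as reported, 0 were called with array weights, within replicates 3 and 4, in EDL arrays alone and without the arrays of high actin ratio, 2 within replicates 1 and 2, and 0 to 2 with an array left out. Of the stretch list in that comparison, 1 as reported, 2 were called with the replicate block and within replicates 1 and 2, and 1 to 2 with an array left out. The causes were not tested. Each gene had 1 probe set, so no other probe set could be tried.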
